A study of Mus musculus with 15 samples.

Results

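The 45 genes described here encode proteins that take a mouse cell through mitosis, from the kinases and cyclins that start it to the proteins that cut the daughter cells apart. They were given as a named list and matched to the deposited tables by name, a rule that uses no measured value. Earlier results of these data were known when the names were chosen. The list holds 45 of the 46679 genes in those tables. All 45 had enough counts to be tested. RNA was sequenced from 15 C57BL/6 mice: 3 naïve brains without a tumor, and 3 end-stage brain tumors from each of 4 implanted lines. The CT2A line (p53 WT) and the GL261 line (K-ras mutant/p53 mutant) were both induced with methylcholanthrene. The 005 line (H-ras and AKT activation, p53+/-) and the Mut3 line (NF1 and p53 inactivation) came from spontaneous tumor models. All 4 lines had been given a retroviral GFP-Fluc reporter (green fluorescent protein with firefly luciferase), and mice 6 to 8 weeks old received 100000 of them in the right hemisphere, or 500000 for the Mut3 line. CT2A and GL261 cells had been grown with serum, whereas 005 and Mut3 cells had been grown in neurobasal medium with EGF and FGF. Each tumor type is 1 line, so the 3 mice of a type are separate hosts of the same cells, and differences between types are reported as differences between lines. Cell number, culture medium and time to end stage went with the line, so their parts cannot be told apart from that of the line.

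Mitosis begins when cyclin B activates the kinase Cdk1. Condensin and topoisomerase then pack the chromosomes, kinetochores built on the centromeres catch the spindle microtubules, and the spindle assembly checkpoint holds the cell until every chromosome is attached. The anaphase promoting complex, with its partner Cdc20, then marks securin and cyclin B for destruction, separase cuts cohesin, and a central spindle guides the cleavage furrow. Most of these genes are transcribed late in the cell cycle, under the MuvB complex with B-Myb and FoxM1, which act at the CHR element and at CCAAT boxes bound by NF-Y. Neurons and most glia of the adult brain have left the cell cycle, so mRNA of these genes is commonly read as a mark of cycling cells. In bulk tissue, fewer cycling cells and less RNA per cell cannot be told apart.

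Promoter sequence is shown for 6 genes, to set side by side members that carry these late cell cycle elements and members whose window holds none of the forms searched. RefSeq promoters (GRCm38.p6) were found for 36 of the 45 genes, 39 promoters in all. No entry was matched for Ccna2, Cdc25c, Foxm1, Aurkb, Incenp, Spc24, Tpx2, Kif20a and Smc4. In the lines below, the 200 bases before the RefSeq start are printed 5′ to 3′ on the strand of the gene, with the letters of the CHR (TTTGAA), the CCAAT box (CCAAT) and 1 E2F form (TTGGCGC), read on either strand, in capitals. The windows are chr7:135716380-135716579 on the minus strand for Mki67, chr11:99024190-99024389 on the minus strand for Top2a, chr9:70421555-70421754 on the minus strand for Ccnb2, chr19:37376182-37376381 on the plus strand for Kif11, chr9:22389207-22389406 on the minus strand for Anln and chr2:119046919-119047118 on the plus strand for Knl1.
Mki67: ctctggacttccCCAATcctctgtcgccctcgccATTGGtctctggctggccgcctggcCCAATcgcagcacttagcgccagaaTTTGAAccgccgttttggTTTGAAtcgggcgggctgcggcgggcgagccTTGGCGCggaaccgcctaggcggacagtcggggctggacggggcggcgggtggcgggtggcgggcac
Top2a: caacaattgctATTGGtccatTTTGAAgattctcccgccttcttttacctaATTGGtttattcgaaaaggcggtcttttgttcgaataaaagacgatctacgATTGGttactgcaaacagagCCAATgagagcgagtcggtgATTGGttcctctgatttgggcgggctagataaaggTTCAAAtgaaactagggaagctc
Ccnb2: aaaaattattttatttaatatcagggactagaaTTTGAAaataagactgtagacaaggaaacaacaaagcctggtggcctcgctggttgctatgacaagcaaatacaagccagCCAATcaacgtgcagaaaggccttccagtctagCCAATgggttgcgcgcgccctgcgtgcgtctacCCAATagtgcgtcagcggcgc
Kif11: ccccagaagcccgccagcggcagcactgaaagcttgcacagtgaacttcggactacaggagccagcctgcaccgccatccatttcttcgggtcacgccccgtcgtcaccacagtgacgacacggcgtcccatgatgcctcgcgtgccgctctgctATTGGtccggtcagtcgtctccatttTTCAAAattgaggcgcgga
Anln: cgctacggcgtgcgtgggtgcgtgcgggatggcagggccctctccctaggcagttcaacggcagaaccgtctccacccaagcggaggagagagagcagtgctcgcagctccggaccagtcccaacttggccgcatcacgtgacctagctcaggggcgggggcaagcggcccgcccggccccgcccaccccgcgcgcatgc
Knl1: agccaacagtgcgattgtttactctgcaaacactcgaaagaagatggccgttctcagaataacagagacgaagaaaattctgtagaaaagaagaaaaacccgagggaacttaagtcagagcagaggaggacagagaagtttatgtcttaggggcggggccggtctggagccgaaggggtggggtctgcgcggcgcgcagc
Mki67, Top2a and Ccnb2 each hold several elements in a short stretch, Kif11 holds 1 CCAAT box in reverse and 1 CHR in reverse close to its start, and the windows of Anln and Knl1 have no capitals.

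Across all 39 promoters, searched on both strands over the 250 bases before the start, TTTGAA was found in 17 (43.6%), against 16.0% of all 32851 RefSeq promoters. A further CHR form, TTTAAA, was in 15.4% of the members' promoters and in 12.1% of all. No other CHR form was searched. A CCAAT box was present in 30 of 39 (76.9%, against 33.8%), and 2 or more boxes in 51.3%, against 10.1%. Either CHR form together with a CCAAT box occurred in 51.3%, against 8.78%. Of the E2F forms, TTCCCGC was in 0 of 39 promoters (3.82% of all) and TTGGCGC was in 5 of 39 (12.8%, against 1.97%); read in reverse, TTGGCGC ends in CCAA and can overlap a CCAAT box. The promoter of Pttg1 (securin) held none of these letters, as did those of Nuf2, Knl1, Nusap1, Mad2l1, Ndc80 and Anln. A match is a description of the letters, not of bound protein, and no test was made.

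Total counts ran from 3105119 to 13130158 per library, lowest in the naïve brains. The 45 genes together made up 0.0396% to 0.05% of naïve counts, rising to 0.445% to 0.587% in CT2A, 0.346% to 0.398% in GL261 and 0.363% to 0.653% in Mut3. In 005 the shares were 0.421%, 0.512% and 0.0843%, and the low value belongs to replicate 3. This library stood apart before any test. It was the lowest of the 3 005 tumors for 44 of the 45 genes and lower than every other tumor for 43, and the other 2 005 tumors exceeded it by a median of 7.39-fold, while it exceeded naïve brain by a median of 2.50-fold. Markers of normal brain moved with it. The summed level of 10 neuron markers was 5342 to 7547 CPM (counts scaled to the normalized library size) in naïve brain and 4314 in replicate 3 of 005, against 229 to 739 in the other 005 tumors. It was 240 to 1208 CPM in CT2A, 861 to 2250 in GL261 and 52.8 to 162 in Mut3, with no neuron marker at 0 in any group mean. Mitochondrial transcripts took 17.8% of its counts, within the 15% to 24% range of the naïve brains. Replicate 1 of CT2A, with the 1208 CPM of neuron markers, was the lowest CT2A tumor for 40 of the 45 genes. Replicate 2 of Mut3 was the lowest Mut3 tumor for 44, and its neuron sum of 162 CPM was close to the 148 CPM of replicate 3. Its oligodendrocyte (492 CPM), astrocyte (873 CPM) and endothelial (115 CPM) marker sums were the highest of Mut3. These were 309, 740 and 98.7 CPM in replicate 1 and 322, 284 and 105 CPM in replicate 3. Its microglia, macrophage and T cell sums lay between those of replicates 1 and 3. Macrophage and monocyte markers moved another way: their sum was 789 to 1212 CPM in CT2A, 983 to 2173 in GL261, 1608 to 10792 in 005 and 245 to 959.7 in Mut3. It was highest in replicate 2 of 005, the 005 tumor with the highest value for 31 of the 45 genes. The part of these other cells in the results below was not tested.

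**Figure D1:**
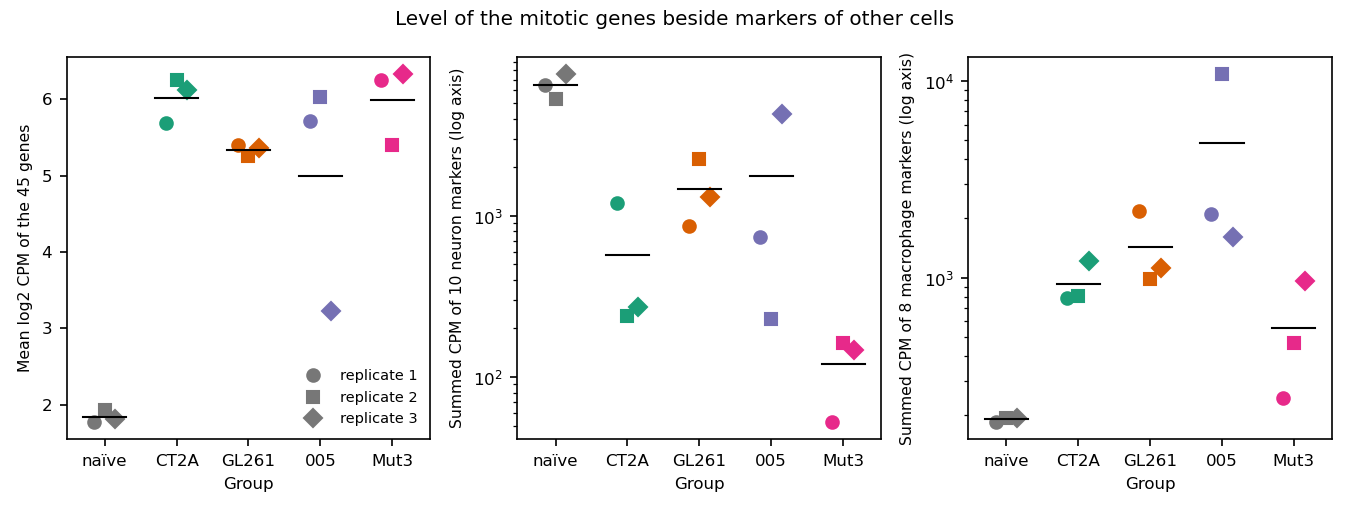
Left, mean log2 CPM of the 45 mitotic genes in each of the 15 samples (y axis) by group (x axis); middle and right, summed CPM of 10 neuron markers and of 8 macrophage and monocyte markers on log axes. Each symbol is 1 mouse and each line is the group mean. Replicate 3 of 005, the purple diamond, has a list mean of 3.22, between the naïve brains (1.77 to 1.93) and the other tumors (5.26 to 6.33), and a neuron marker sum near that of naïve brain.

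The first question was how far each tumor lay above brain tissue without a tumor. The mitotic genes were higher in all 4 tumors. A gene was called when edgeR's quasi-likelihood test gave an adjusted p under 0.05, over the 17481 genes tested, and the fold change was at least 2. By this rule 44 of 45 genes rose in CT2A, where 19.0% of all genes rose; 40 rose in GL261 (14.6% of all genes), 40 in 005 (11.6%) and 44 in Mut3 (17.9%). None was called lower in any tumor, whereas 20.2% of all genes were called lower in CT2A, 7.77% in GL261, 1.05% in 005 and 19.8% in the Mut3 tumors. None of the 45 was lower at an unadjusted p under 0.05, and DESeq2 also called none lower. The list's median log2 fold change was 4.53 for CT2A, 3.93 for GL261, 3.90 for 005 and 4.53 for Mut3, against medians over all tested genes of -0.04, -0.08, 0.01 and 0.11. The 4 comparisons share the same 3 naïve brains. Where 4 log2 fold changes follow each other below without names, they are for CT2A, GL261, 005 and Mut3 over naïve brain. Of the 45 genes, 37 were called higher in all 4 tumors, 5 in 3 (Cdc25c, Kif2c, Kif4, Ncapd2 and Spc24), 2 in 2 (Bub3 and Incenp) and 1 in a single tumor type (Pttg1, in GL261).

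The groups rarely overlapped. In CPM, the 3 tumors and the 3 naïve brains had no overlap for 44 genes in CT2A, 45 in GL261, 35 in 005 and 45 in the Mut3 tumors. Over all tested genes, in either direction, 56.3% had no overlap in CT2A, 47.8% in GL261, 27.5% in 005 and 53.3% in the Mut3 comparison. In 005, replicate 3 lay above every naïve brain for 35 genes, and without it 44 of the 45 genes were called higher (17.6% of all genes), the exception being Pttg1. Leaving out the naïve brains in turn left 34 to 39 called in 005 (5.96% to 9.25% of all genes). Where only the 6 samples of the comparison were fitted, 10 of the 42 members tested were called in 005, while the share over all genes also fell, to 1.46%.

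**Figure D2:**
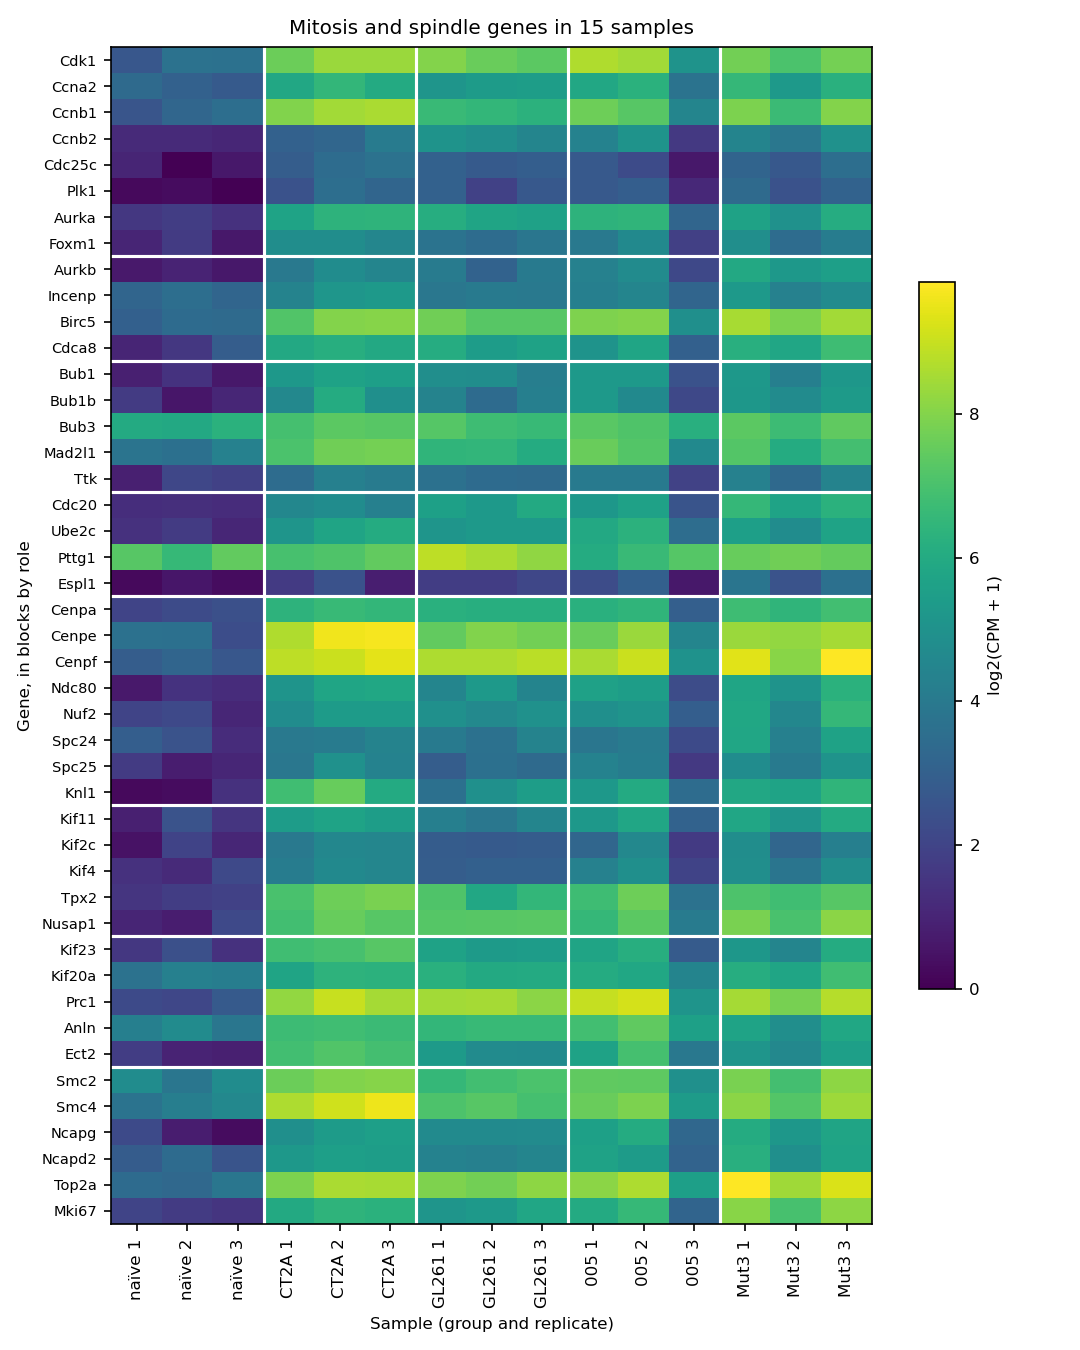
Level of each of the 45 genes, as log2(CPM + 1) in color, in the 15 samples (x axis, by group and replicate); genes (y axis) are in 8 blocks by role, in the order of the text. The 3 naïve columns are darkest except for Pttg1 and Bub3, the tumor columns are light, and the column of replicate 3 of 005 lies between them.

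The genes of mitotic entry rose in every tumor, with 8 of 8 called in CT2A, GL261 and Mut3 and 7 of 8 in 005. The medians were 4.59 in CT2A, 3.98 in GL261, 3.93 in 005 and 4.23 in the Mut3 tumors on the log2 scale. Cdk1, the kinase that drives entry, measured 5.3, 12 and 11.6 CPM in naïve brain, 195, 325 and 323 in CT2A, 256, 188 and 164 in GL261, 401, 353 and 32.3 in 005 and 211, 131 and 220 in the Mut3 tumors. Every tumor library lay above every naïve library. Over naïve brain, Cdk1 rose on the log2 scale by 4.87 ± 0.72 in CT2A, 4.40 ± 0.71 in GL261, 4.77 ± 0.72 in 005 and 4.29 ± 0.71 in the Mut3 tumors (± SE; adjusted p from 4.75e-04 to 0.00182). Ccnb1, the cyclin that activates Cdk1, was at 5.1, 8.47 and 10.8 CPM in naïve brain, 249, 349 and 387 in CT2A, 99.3, 88.9 and 78 in GL261, 204, 153 and 21.4 in 005 and 237, 104 and 258 in the Mut3 tumors. The CT2A libraries lay above all GL261 libraries. The log2 fold changes over naïve brain were 5.34, 3.45, 3.96 and 4.62 in CT2A, GL261, 005 and Mut3. Its transcripts share 27.7% of their 31-base words with other genes, mainly the pseudogene Ccnb1-ps, so its counts are uncertain to that extent.

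Plk1, a kinase of mitotic entry, spindle assembly and cytokinesis, had 2 counts in all over the 3 naïve libraries. Its values were 0.204, 0.249 and 0 CPM in naïve brain, 4.52, 10.7 and 8.27 in CT2A, 7.25, 2.75 and 5.46 in GL261, 5.67, 6.76 and 1.21 in 005 and 9.51, 4.53 and 7.56 in the Mut3 tumors. Because naïve brain was at or under 3 counts per library, the ratio of summed counts is given with its 95% interval, which covers counting error only: 47.9 (13.07 to 399) in CT2A, 31.8 (8.56 to 266) in GL261, 25.2 (6.84 to 210) in 005 and 46.2 (12.6 to 384) in the Mut3 tumors. Plk1 shares 14.8% of its 31-base words with the pseudogene Plk-ps1. Foxm1, the transcription factor of many genes in the list, measured 1.02, 2.24 and 0.541 CPM in naïve brain, 27.4, 27.3 and 21.8 in CT2A, 12.2, 10.2 and 13.6 in GL261, 14.5, 24.5 and 2.63 in 005 and 27.6, 10.2 and 16.4 in the Mut3 tumors. Its log2 fold changes were 4.31, 3.23, 3.43 and 3.81, and CT2A replicates 1 and 2 and Mut3 replicate 1 were the highest. Aurka, the centrosomal Aurora kinase, changed by 5.11, 4.77, 4.82 and 4.56, Ccna2 (cyclin A, which acts in S phase and early mitosis) by 3.21, 2.37, 2.68 and 3.16 and Ccnb2, another B cyclin, by 3.13, 4.50, 3.89 and 4.18, all called. Cdc25c, a phosphatase that removes the inhibitory phosphates from Cdk1, rose in CT2A (4.10), GL261 (3.57) and Mut3 (3.86). In 005 its log2 fold change of 2.57 ± 0.84 missed the threshold (adjusted p = 0.0578), and without replicate 3 it was 3.01 and called.

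The chromosomal passenger complex, which corrects wrong attachments and later moves to the central spindle, had its smallest change in its scaffold. All 4 of its genes rose in CT2A and Mut3 and 3 of 4 in GL261 and 005. Aurkb, the kinase, was at 0.612, 0.996 and 0.541 CPM in naïve brain, 14.9, 26.7 and 21.2 in CT2A, 16.2, 7.6 and 15.6 in GL261, 19.1, 25.8 and 3.35 in 005 and 59.4, 36.4 and 46.1 in the Mut3 tumors. The 3 Mut3 tumors were the 3 highest libraries. Aurkb rose over naïve brain on the log2 scale by 4.84 ± 0.71 in CT2A, 4.17 ± 0.71 in GL261, 4.45 ± 0.71 in 005 and 6.02 ± 0.73 in the Mut3 tumors. Birc5 (survivin) changed by 4.64, 4.28, 4.31 and 5.18 and Cdca8 (borealin) by 4.37, 4.09, 3.33 and 4.66. Incenp, the scaffold, gave 8.16, 10.7 and 8.11 CPM in naïve brain, 20.1, 34.9 and 37.8 in CT2A, 13.9, 15.5 and 14.7 in GL261, 17.9, 21.4 and 8.19 in 005 and 38.6, 18.7 and 26 in the Mut3 tumors. It was called in CT2A (1.78) and Mut3 (1.63). In GL261 it stood at 0.71 ± 0.39 (adjusted p = 0.188), the smallest change of the list there, and in 005 at 0.81 ± 0.39 (adjusted p = 0.17), or 1.06 and called without replicate 3.

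Among the checkpoint genes, 5 of 5 rose in CT2A and Mut3 and 4 of 5 in GL261 and 005. Bub1b (BubR1, part of the complex that inhibits Cdc20) measured 2.24, 0.498 and 1.08 CPM in naïve brain, 22.8, 66 and 28.9 in CT2A, 19.9, 9.70 and 18 in GL261, 37.7, 24.1 and 3.35 in 005 and 36.2, 25.9 and 40.1 in the Mut3 tumors. CT2A replicate 2 was the highest library. Over naïve brain, Bub1b rose on the log2 scale by 4.89 ± 0.82 in CT2A, 3.58 ± 0.80 in GL261, 4.03 ± 0.80 in 005 and 4.69 ± 0.82 in the Mut3 tumors. Bub1, its partner kinase, changed by 5.40, 4.54, 4.68 and 4.85, Mad2l1 (Mad2, which also binds Cdc20) by 3.69, 2.47, 3.06 and 2.94 and Ttk (Mps1, the kinase that starts the signal) by 2.74, 2.21, 2.30 and 2.86. The exception was Bub3, which carries Bub1 and BubR1 to the kinetochore and was already at 63.2, 60.3 and 77.1 CPM in naïve brain. Bub3 rose in CT2A (1.12) and Mut3 (1.13), while the changes of 0.82 ± 0.31 in GL261 and 0.88 ± 0.31 in 005 were not called (adjusted p = 0.0704 and 0.0792). Without replicate 3 of 005 the value there was 1.08, and called. In TPM, Bub3 changed little in CT2A and Mut3. It was at 11.2 to 15.1 TPM in naïve brain, 13.4 to 14.4 in CT2A and 11.5 to 18.2 in Mut3, so these ranges overlapped.

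The anaphase genes differed from one another, with 4 of 4 called in GL261 and 3 of 4 in each other tumor. Cdc20, which activates the anaphase promoting complex, measured 1.43, 1.49 and 1.35 CPM in naïve brain, 22.3, 26.5 and 18.5 in CT2A, 47.7, 38.6 and 61.7 in GL261, 35.9, 48.7 and 4.91 in 005 and 91.9, 51.7 and 75.8 in the Mut3 tumors. CT2A was the lowest of the tumors apart from replicate 3 of 005, and Mut3 replicates 1 and 3 were the highest. Cdc20 rose over naïve brain on the log2 scale by 3.96 ± 0.66 in CT2A, 5.10 ± 0.68 in GL261, 4.37 ± 0.67 in 005 and 5.66 ± 0.70 in the Mut3 tumors. Cdc20 shares 25.5% of its 31-base words with other genes, mainly Gm7856. Ube2c, the ubiquitin-conjugating enzyme of that complex, rose by 4.91, 4.45, 4.90 and 4.62. Espl1 (separase, the protease that opens cohesin) had 4 counts in all over the naïve brains. The ratios of summed counts were 7.47 (95% interval 2.75 to 28.4, counting error only) in CT2A, 8.84 (3.26 to 33.6) in GL261, 10.1 (3.84 to 37.9) in 005 and 31.5 (12.2 to 116) in the Mut3 tumors. Espl1 was called in all 4. Left out 1 at a time, every one of the 6 samples ended the call in GL261, every one but replicate 3 of 005 ended it in 005, and naïve replicates 1 and 3 and CT2A replicate 2 ended it in CT2A.

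Pttg1 (securin, the inhibitor of separase, chr11:43420250-43426251 on the minus strand in GRCm38) was the 1 gene called in a single tumor type. It measured 152, 95.7 and 178 CPM in naïve brain, 126, 138 and 177 in CT2A, 464, 387 and 290 in GL261, 66, 101 and 149 in 005 and 186, 206 and 182 in the Mut3 tumors. Only the 3 GL261 tumors lay above all naïve brains by a wide margin. In TPM, which are scaled for transcript length and depth, it was at 148, 131 and 151 TPM in naïve brain, 76.4, 67.5 and 87.4 in CT2A, 229, 238 and 200 in GL261, 36.8, 61.5 and 142 in 005 and 110, 124 and 106 in the Mut3 tumors, the highest of the 45 genes in naïve brain, ahead of Bub3 at 11.2, 15.1 and 11.9 TPM. On this scale CT2A and Mut3 were below all 3 naïve brains and GL261 above them, and replicate 3 of 005, at 142 TPM, was within the naïve range. The fitted log2 fold changes in CPM were 0.05 ± 0.32 in CT2A, 1.42 ± 0.33 in GL261, -0.43 ± 0.32 in 005 and 0.43 ± 0.32 in the Mut3 tumors. It was called in GL261 alone (adjusted p = 0.0081), and had the smallest value of the list in CT2A, 005 and Mut3, with adjusted p of 0.919, 0.355 and 0.301. Without replicate 3 of 005 the value there was -0.84 (adjusted p = 0.0476), under the 2-fold limit and not called. The direction in CT2A and Mut3 thus depended on the scale, and this shift was not particular to Pttg1. Over all tested genes, median log2 fold changes over naïve brain were -0.04 in CT2A and 0.11 in Mut3 from counts. On log2(TPM + 1) they were -0.38 and -0.27. The added 1 shrinks the changes of low genes, so these medians understate the shift. In the 4644 genes checked, counts per TPM were the product of 1 gene factor and 1 library factor. The log2 shift between the scales was thus the same for each of these genes. Cdk1 averaged 9.63 CPM in naïve brain and 281 in CT2A, against 3.31 and 46.2 TPM. The TPM values of Bub3 and Anln carry the same shift.

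The centromere and kinetochore genes rose with 8 of 8 called in CT2A, GL261 and Mut3 and 7 of 8 in 005, with medians of 4.95, 4.36, 4.10 and 4.99 in CT2A, GL261, 005 and Mut3. Knl1, the scaffold that recruits the checkpoint proteins, had the largest change of the list in CT2A. Its values were 0.204, 0.249 and 1.62 CPM in naïve brain, 110, 185 and 63.9 in CT2A, 11.4, 29.4 and 43.3 in GL261, 36.5, 63.4 and 10.2 in 005 and 59.2, 50.8 and 86.1 in the Mut3 tumors. The CT2A libraries ranged widely, and naïve brain was near 0. Over naïve brain, Knl1 rose on the log2 scale by 7.48 ± 0.92 in CT2A, 5.40 ± 0.88 in GL261, 5.78 ± 0.88 in 005 and 6.61 ± 0.90 in the Mut3 tumors. Cenpf, a large kinetochore protein, and Cenpe, the kinesin that slides chromosomes to the spindle equator, had their highest group means in different lines: Cenpf reached 664, 271 and 890 CPM in Mut3, and Cenpe reached 404, 794 and 839 CPM in CT2A against 175, 249 and 212 CPM in GL261. Their log2 fold changes were 6.38, 5.94, 5.53 and 6.50 for Cenpf and 6.22, 4.54, 4.30 and 5.17 for Cenpe. Cenpa, the histone that marks the centromere, changed by 4.60, 4.28, 3.90 and 4.81. Of the Ndc80 complex, which grips the microtubule end, Ndc80 changed by 5.29, 4.44, 4.69 and 5.46, Nuf2 by 3.82, 3.44, 3.14 and 4.48 and Spc25 by 3.91, 2.71, 3.16 and 4.14.

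The remaining subunit of that complex, Spc24, moved less over naïve brain than its partners. It measured 6.73, 4.73 and 1.35 CPM in naïve brain, 14.5, 15.8 and 20.2 in CT2A, 15.8, 11.8 and 20.3 in GL261, 13.6, 15.8 and 3.63 in 005 and 54.9, 18.2 and 49.5 in the Mut3 tumors. Naïve brain reached 6.73 CPM, and in Mut3 replicates 1 and 3 were high while replicate 2 lay among the CT2A and GL261 values. Spc24 was called in CT2A (1.96), GL261 (1.88) and Mut3 (3.24), and the change in 005 of 1.34 ± 0.60 was not called (adjusted p = 0.143), or was 1.69 and called without replicate 3.

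Among the motors and microtubule proteins, 5 of 5 rose in CT2A, 005 and Mut3 and 3 of 5 in GL261. Nusap1, which bundles spindle microtubules near chromosomes, had the largest change of the list in GL261 and in Mut3. It was at 1.02, 0.747 and 3.52 CPM in naïve brain, 115, 187 and 154 in CT2A, 149, 155 and 160 in GL261, 92.9, 163 and 15.9 in 005 and 232, 126 and 276 in the Mut3 tumors. Nusap1 rose over naïve brain on the log2 scale by 6.46 ± 0.80 in CT2A, 6.48 ± 0.80 in GL261, 5.71 ± 0.78 in 005 and 6.93 ± 0.82 in the Mut3 tumors. Tpx2, which recruits and activates Aurora A on the spindle, changed by 6.33, 5.36, 5.52 and 5.83, and Kif11 (Eg5, the kinesin that pushes the poles apart) by 4.22, 2.85, 3.75 and 4.37. GL261 was low for the remaining motors. Kif2c (MCAK, which takes microtubule ends apart) was at 6.22, 5.82 and 6.31 CPM in GL261, a log2 fold change of 2.05 ± 0.79 that was not called (adjusted p = 0.071), and changed by 3.73, 2.91 and 3.60 in CT2A, 005 and Mut3. Kif4, a chromosome-bound kinesin, was at 6.42, 7.11 and 7.04 CPM in GL261 (1.70 ± 0.66, adjusted p = 0.0742) and changed by 3.29, 2.99 and 3.43 in the others.

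All 5 genes of the central spindle and cytokinesis rose in all 4 tumors. Prc1, which bundles the antiparallel microtubules of the midzone, had the largest change of the list in 005 and measured 3.67, 3.24 and 5.95 CPM in naïve brain, 300, 516 and 359 in CT2A, 350, 364 and 279 in GL261, 500, 584 and 32.8 in 005 and 364, 226 and 426 in the Mut3 tumors. Over naïve brain, Prc1 rose on the log2 scale by 6.52 ± 0.83 in CT2A, 6.27 ± 0.82 in GL261, 6.44 ± 0.83 in 005 and 6.31 ± 0.83 in the Mut3 tumors, nearly equal in the 4 lines. Kif23 (MKLP1, the kinesin of centralspindlin) changed by 5.62, 4.06, 4.02 and 3.95, and Kif20a, which brings the passenger complex to the midzone, by 2.15, 2.07, 1.58 and 2.30. Ect2 (chr3:27097222-27153878, minus strand), the exchange factor that activates RhoA at the furrow, gave 2.45, 0.996 and 0.811 CPM in naïve brain, 116, 141 and 117 in CT2A, 39.8, 25.5 and 25.4 in GL261, 49.5, 121 and 14.2 in 005 and 33.6, 22.8 and 45.7 in the Mut3 tumors. The CT2A libraries lay above all GL261 and Mut3 libraries and were matched by replicate 2 of 005 alone, with log2 fold changes over naïve brain of 6.40 ± 0.74 in CT2A, 4.35 ± 0.69 in GL261, 5.38 ± 0.71 in 005 and 4.53 ± 0.69 in the Mut3 tumors. Anln (anillin, which links the contractile ring to the membrane, chr9:22332012-22389188, minus strand) was at 17.7, 25.9 and 13.5 CPM in naïve brain, 105, 113 and 103 in CT2A, 89.3, 98.4 and 96.6 in GL261, 115, 173 and 47.7 in 005 and 50.6, 27.7 and 56.4 in the Mut3 tumors. Mut3 and replicate 3 of 005 held the lowest tumor values. Anln rose over naïve brain on the log2 scale by 2.49 ± 0.42 in CT2A, 2.31 ± 0.42 in GL261, 2.55 ± 0.42 in 005 and 1.24 ± 0.41 in the Mut3 tumors. The Mut3 call (adjusted p = 0.0264) was lost when naïve replicate 1 or 3, or Mut3 replicate 1 or 3, was left out. In TPM, Anln was at 0.802 to 1.58 in Mut3, within the naïve range of 0.554 to 1.71.

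The last block holds the proteins that shape the chromosome. Of its 6 genes all rose in CT2A, 005 and Mut3 and 5 in GL261. Mki67, which codes for Ki-67, the protein that coats mitotic chromosomes and serves as the usual marker of proliferation (chr7:135689784-135716361, minus strand), was at 3.06, 2.24 and 1.89 CPM in naïve brain, 62, 82.3 and 76 in CT2A, 34, 37.7 and 54.7 in GL261, 63.3, 94.3 and 7.9 in 005 and 273, 123 and 284 in the Mut3 tumors. The Mut3 tumors were the 3 highest libraries, and replicate 2 of Mut3 lay above the highest 005 tumor. Over naïve brain, Mki67 rose on the log2 scale by 4.91 ± 0.72 in CT2A, 4.11 ± 0.70 in GL261, 4.50 ± 0.71 in 005 and 6.54 ± 0.77 in the Mut3 tumors. Top2a, the topoisomerase that untangles sister chromatids, measured 9.79, 8.97 and 13.5 CPM in naïve brain, 237, 384 and 375 in CT2A, 242, 213 and 285 in GL261, 277, 394 and 45.4 in 005 and 910, 347 and 618 in the Mut3 tumors. Mut3 replicates 1 and 3 were the highest, and replicate 2 lay among the CT2A values. Top2a rose over naïve brain on the log2 scale by 4.95 ± 0.65 in CT2A, 4.52 ± 0.64 in GL261, 4.47 ± 0.64 in 005 and 5.86 ± 0.68 in the Mut3 tumors. Smc4 (chr3:69004738-69034623, plus strand), a core subunit of condensin, was at 12.2, 17.7 and 23 CPM in naïve brain, 392, 559 and 762 in CT2A, 135, 154 and 122 in GL261, 193, 236 and 41.3 in 005 and 275, 145 and 333 in the Mut3 tumors. The CT2A libraries were the 3 highest. Over naïve brain, Smc4 rose on the log2 scale by 5.02 ± 0.59 in CT2A, 2.96 ± 0.54 in GL261, 3.15 ± 0.54 in 005 and 3.83 ± 0.56 in the Mut3 tumors. Smc2, its partner, changed by 3.41, 2.35, 2.45 and 3.24, and Ncapg, a subunit of condensin I, by 4.53, 3.93, 4.61 and 4.95. Ncapd2, another subunit of condensin I, changed by 2.59, 2.24 and 2.86 in CT2A, 005 and Mut3 and by 1.5 ± 0.54 in GL261, where it was not called (adjusted p = 0.0574).

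**Figure D3:**
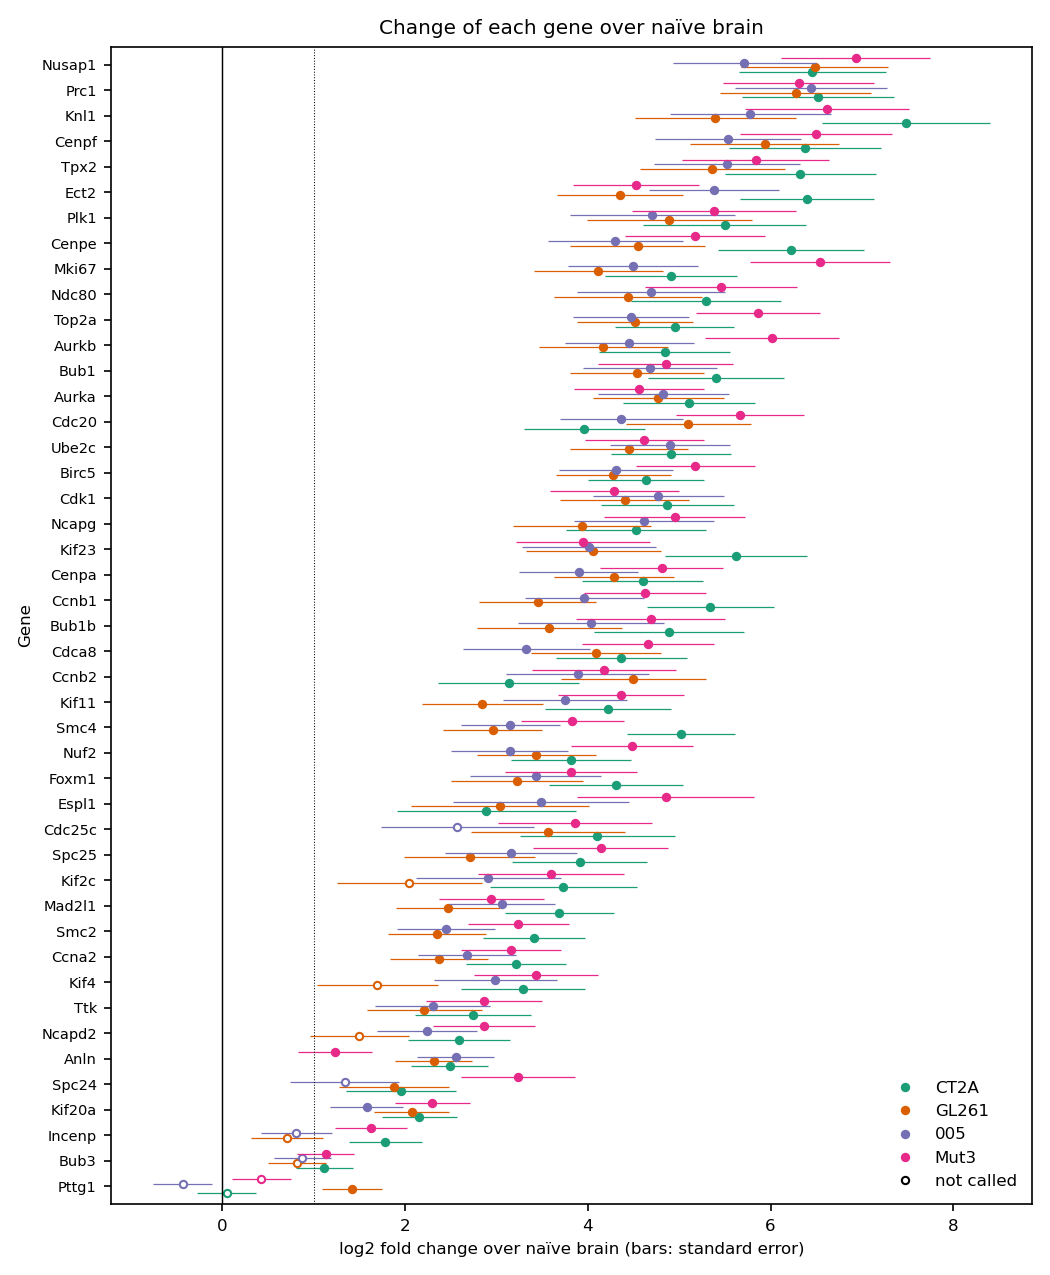
Fitted log2 fold change over naïve brain (x axis, bars are standard errors) of each of the 45 genes (y axis, ordered by the mean of the 4 tumors), colored by tumor line; filled points were called and open points were not. Pttg1, Bub3 and Incenp lie nearest to 0, and Nusap1, Prc1 and Knl1 lie farthest from it.

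The second question was whether the 4 lines differed from one another. The group means of the list were higher in CT2A and Mut3 than in GL261 and 005, and few single genes passed the test. For 005 the gap rested largely on replicate 3, since the list means of the other 005 tumors were 5.72 and 6.03 log2 CPM, against group means of 6.02 in CT2A and 5.99 in Mut3. By mean CPM, CT2A was the highest of the 4 lines for 21 genes, Mut3 for 21, GL261 for 2 and 005 for 1, while GL261 was the lowest for 26, 005 for 12, Mut3 for 4 and CT2A for 3. An F test of any difference among the 4 lines called 5 of the 45 genes (Aurkb, Ect2, Mki67, Pttg1 and Smc4), a share of 11.1%, against 26.8% of all genes tested; 14 had an unadjusted p under 0.05. Without replicate 3 of 005, the test called 20 of the 45 genes, against 33.8% of all genes; leaving out replicate 2 of 005 gave 11 (27.9% of all genes), replicate 1 of 005 gave 5 (26.3%), and leaving out any 1 CT2A, GL261 or Mut3 tumor gave 2 to 4 (16.3% to 25.4%).

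Pairwise, the median log2 difference over the list was 0.60 for CT2A over GL261, 0.62 for CT2A over 005, -0.01 for CT2A over Mut3, -0.16 for GL261 over 005, -0.63 for GL261 over Mut3 and -0.68 for 005 over Mut3. The median for CT2A over 005 was 0.23, and that for 005 over Mut3 -0.27, without replicate 3 of 005. The sign for GL261 over 005 turned with 1 library: it was 0.16 without replicate 1 of 005, 0.24 without replicate 2 and -0.66 without replicate 3. With all samples, the medians over all tested genes were -0.13, -0.23, 0.02, -0.15, 0.04 and 0.10 in the same order. Between CT2A and GL261, Ect2 (2.05 ± 0.57, adjusted p = 0.0414) and Smc4 (2.06 ± 0.51, adjusted p = 0.0248) were called higher in CT2A, where 4.15% of all genes were, and Pttg1 (-1.37 ± 0.33, adjusted p = 0.0191) lower, where 3.62% were. Ect2 was also higher in CT2A than in Mut3 (1.87 ± 0.57, adjusted p = 0.0423), where 6.61% of all genes were higher. None was called lower in CT2A than in Mut3 (6.15% of all genes; 5 members at an unadjusted p under 0.05, and 2 called by DESeq2).

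Between CT2A and 005, edgeR called no member, against 2.12% of all genes higher and 1.99% lower; 7 members were higher at an unadjusted p under 0.05 and 0 lower, and DESeq2 called 2 higher. Pttg1 was higher in GL261 than in 005 (1.85 ± 0.33, adjusted p = 0.00696), as were 1.73% of all genes, and none was lower (0.887% of all genes; 1 member at an unadjusted p under 0.05, and 0 called by DESeq2). Without replicate 3 of 005, Kif4 (-1.80) and Ect2 (-1.51) were called lower in GL261 than in 005, and Smc4 (1.45) higher in CT2A than in 005.

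Mut3 stood above GL261 and 005 for the proliferation marker. Mki67 was lower in GL261 than in Mut3 (-2.43 ± 0.61, adjusted p = 0.0161), and so was Aurkb (-1.85 ± 0.55, adjusted p = 0.0334), where 6.10% of all genes were lower. None was called higher in GL261 than in Mut3 (11.1% of all genes; 2 members at an unadjusted p under 0.05, and 0 called by DESeq2). In 005, Mki67 (-2.04 ± 0.60, adjusted p = 0.0279) and Spc24 (-1.90 ± 0.58, adjusted p = 0.0311) were lower than in Mut3, where 5.76% of all genes were, and Anln (1.32 ± 0.40, adjusted p = 0.032) was higher, where 14.0% were. Without replicate 3 of 005, the Spc24 difference was -1.54 and not called, and Pttg1 (-1.26) was called lower in 005 than in Mut3. Of these 10 differences between lines, Pttg1 between GL261 and 005 kept its call without each of the 6 samples in turn, whereas the 2 calls of Ect2 and that of Aurkb were lost without any 1 of them. The neuron and macrophage marker sums of these lines are given above, and their part was not tested.

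**Figure D4:**
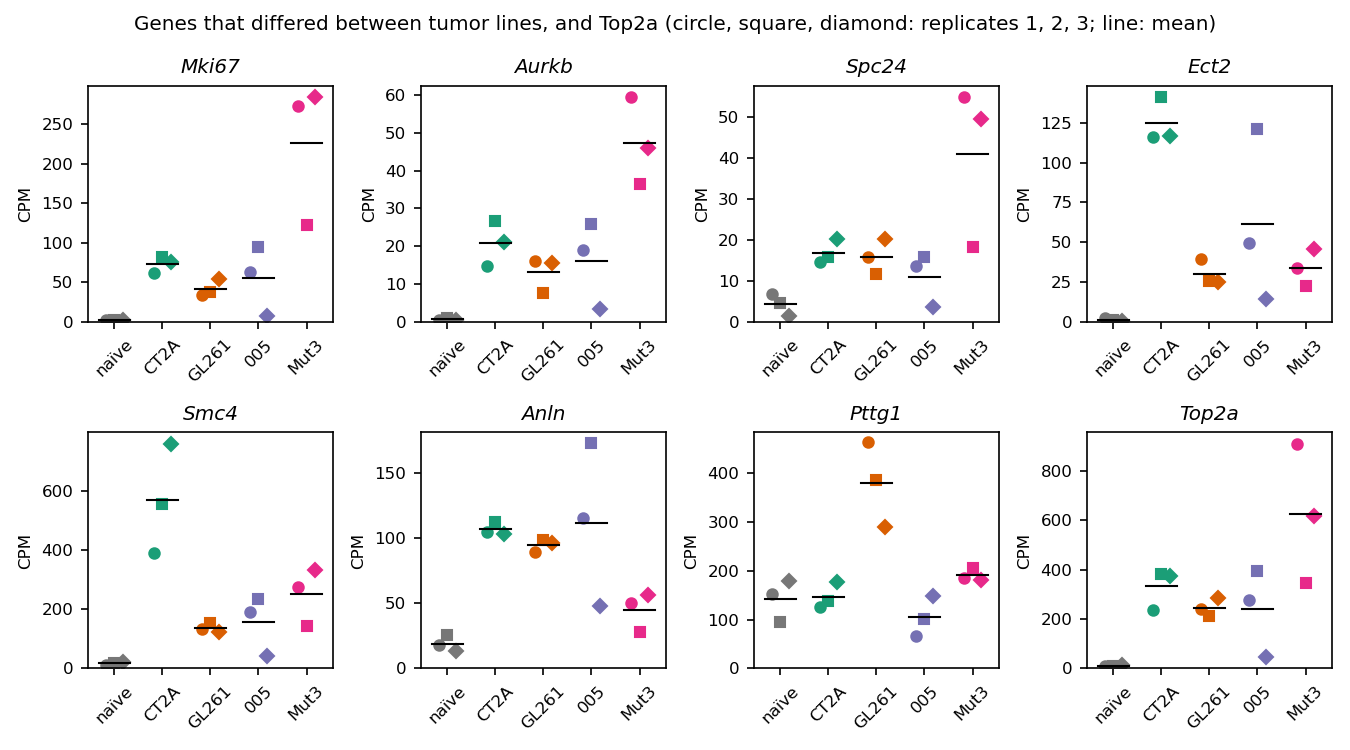
CPM (y axis) of the 7 genes called in a comparison between 2 tumor lines, and of Top2a, in the 15 samples by group (x axis); circle, square and diamond are replicates 1, 2 and 3, and the line is the group mean. Mut3 is highest for Mki67, Aurkb, Spc24 and Top2a, CT2A for Ect2 and Smc4, and GL261 for Pttg1, while Anln is lowest in Mut3 among the tumors.

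To see which genes parted from the rest of the list, the test among lines was repeated with each library scaled so that the mean log2 count of the 45 genes was equal in all 12 tumors. On this scale a gene that merely follows the list does not differ. Anln alone was called (adjusted p = 0.0462), 1 of 45 or 2.22%, against 17.2% of the 17186 genes tested, and 7 genes had an unadjusted p under 0.05. The scaling takes the members' common difference out of the members and puts it, with the sign turned, into all other genes. A lower share of members than of all genes is thus partly built in, and no conclusion is drawn from it. Without replicate 3 of 005, 13 of the 45 were called, against 30.0% of all genes; without replicate 1 or 2 of 005 the counts were 3 and 4 (40.8% and 47.7% of all genes), and without any 1 CT2A, GL261 or Mut3 tumor 0 (2.48% to 14.3% of all genes). The 5 genes with the smallest p were Anln, Mki67, Ect2, Cdc20 and Smc4. Relative to the list, Anln stood at -1.33 in Mut3 and between -0.04 and 0.89 in the other lines, on the log2 scale. Mki67 stood at 1.20 in Mut3 and between -0.50 and -0.33 elsewhere (adjusted p = 0.0539). Ect2 was at 0.93 in CT2A and -0.97 in Mut3 (adjusted p = 0.0632), Cdc20 at -1.11 in CT2A and 0.70 in GL261 (adjusted p = 0.0836), and Smc4 at 0.91 in CT2A and -0.42 in GL261 (adjusted p = 0.0991). All 5 were called without replicate 3 of 005, and the smallest p of the list was that of Pttg1 (adjusted p = 0.00067), which ranked 9 of 45 with that replicate in.

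The 8 role blocks also stood at different levels relative to the list, given here with no test. The central spindle and cytokinesis block stood 1.06, 0.93 and 1.03 above the mean of the list in CT2A, GL261 and 005 and 0.06 above it in Mut3, on the log2 CPM scale, and the 3 Mut3 tumors were the 3 lowest of the 12. The block of condensin, topoisomerase and chromosome surface stood highest in Mut3 (1.28, against 0.70 to 1.01 in the other lines), as did the passenger complex (0.22, against -0.27 to -0.17). The anaphase block was lowest in CT2A (-1.40, against -0.54 to -0.11). The entry block ranged from -0.88 in Mut3 to -0.50 in GL261.

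**Figure D5:**
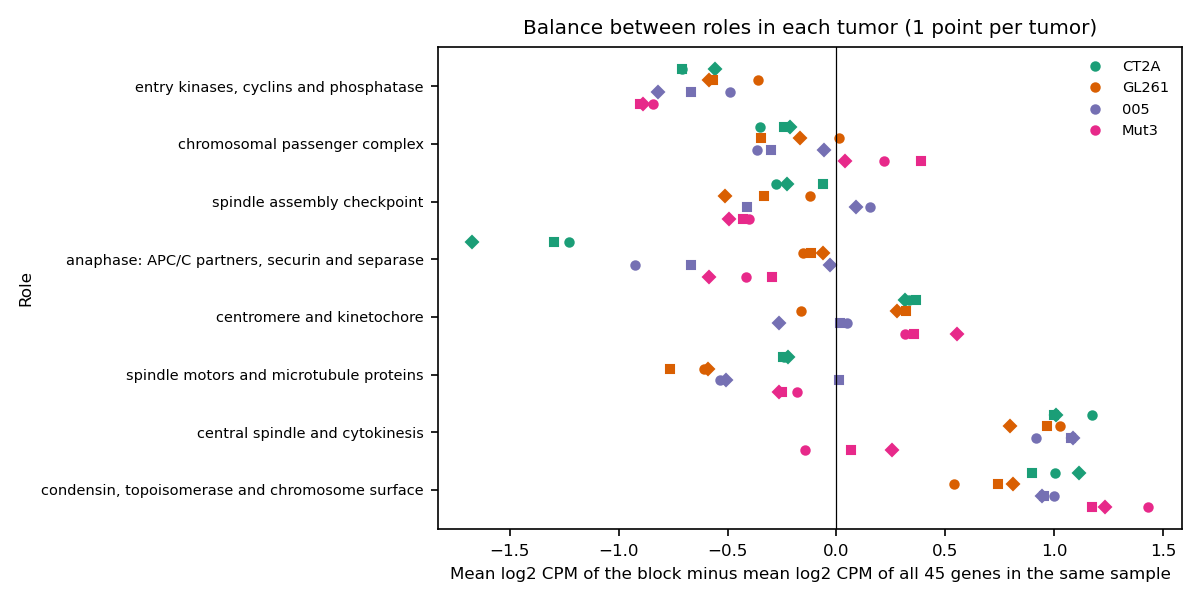
For each of the 8 role blocks (y axis), the mean log2 CPM of the block minus the mean log2 CPM of all 45 genes in the same tumor (x axis); each point is 1 tumor, colored by line, with circle, square and diamond for replicates 1, 2 and 3. The Mut3 points lie to the left for the central spindle and cytokinesis block and to the right for the chromosomal passenger complex, and the CT2A points lie to the left for the anaphase block.

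Other mitotic genes were read from 6 lists with 115 genes, of which 112 were tested (Wee1, Pkmyt1 and Ccnb3 were too low). Of these, 74 rose and 5 fell in CT2A, 55 and 4 in GL261, 70 and 2 in Mut3, and 53 rose in 005, with medians of 2.00, 1.27, 2.23 and 1.42 in that order, and 20 differed among the 4 lines, where 26.8% of all genes did. The shares of all genes called higher, given above, ran from 11.6% in 005 to 19.0% in CT2A. Of the 28 further spindle motors and microtubule proteins, 24 rose in CT2A, 19 in GL261, 19 in 005 and 24 in the Mut3 tumors, and 4 differed among the lines. Kif24, a kinesin known at the centriole, was at 11.6 ± 2.59 CPM in naïve brain, 211 ± 52.6 CPM in CT2A, 510 ± 62.2 CPM in GL261, 15 ± 5.14 CPM in 005 and 99.5 ± 67.6 CPM in Mut3 (adjusted p among the lines = 3.72e-05). It rose in CT2A, GL261 and Mut3 and was not called in 005, and its p among the lines was the smallest of the 112 genes. Spag5 (astrin) was at 9.16 ± 1.04 CPM in naïve brain, 29.9 ± 4.67 CPM in CT2A, 10.7 ± 2.63 CPM in GL261, 16.1 ± 4.56 CPM in 005 and 29.6 ± 5.84 CPM in Mut3 (adjusted p = 0.00708), and Haus1, of the augmin complex, at 9.87 ± 4.55 CPM in naïve brain, 41.8 ± 4.83 CPM in CT2A, 31.4 ± 9.11 CPM in GL261, 20.1 ± 8.69 CPM in 005 and 59 ± 10.1 CPM in Mut3 (adjusted p = 0.0337). Spag5 was low in GL261 and 005, and Haus1 was highest in Mut3.

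Of the 32 further kinetochore, centromere and checkpoint genes, 28 rose in CT2A, 19 in GL261, 16 in 005 and 24 in the Mut3 tumors, and 8 differed among the lines. Cenpm was at 2.92 ± 0.639 CPM in naïve brain, 9.60 ± 3.55 CPM in CT2A, 11.8 ± 1.25 CPM in GL261, 8.93 ± 5.85 CPM in 005 and 35.1 ± 17.7 CPM in Mut3 (adjusted p = 0.0216), and Cenph at 3.51 ± 1.2 CPM in naïve brain, 165 ± 27 CPM in CT2A, 43.3 ± 15.6 CPM in GL261, 37.9 ± 26.9 CPM in 005 and 70.9 ± 33.9 CPM in Mut3 (adjusted p = 0.0259). These inner kinetochore genes peaked in different lines. Zwint, a kinetochore protein that adult brain also expresses, went the other way, at 739 ± 352 CPM in naïve brain, 210 ± 49.6 CPM in CT2A, 313 ± 67.4 CPM in GL261, 410 ± 118 CPM in 005 and 122 ± 21.7 CPM in Mut3 (adjusted p = 0.0154), and fell in CT2A, GL261 and Mut3. The neuron markers fell in CT2A and Mut3 (10 of 10 in each). In GL261 and 005 all 10 had negative log2 fold changes, with medians of -2.06 and -1.81, and 0 were called; their part was not tested. Of the 11 entry genes tested, 8, 5, 7 and 8 rose in CT2A, GL261, 005 and Mut3, and Melk, a kinase, differed among the lines, at 1.37 ± 1.03 CPM in naïve brain, 33.6 ± 3.64 CPM in CT2A, 17.6 ± 1.52 CPM in GL261, 9.34 ± 6.19 CPM in 005 and 44.7 ± 17.7 CPM in Mut3 (adjusted p = 0.0347).

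Of the 14 genes of the anaphase promoting complex, 4 rose in CT2A, GL261 and Mut3 and 2 in 005, and 2 fell in CT2A, beside the shares of all genes given above (from 11.6% higher in 005 to 19.0% in CT2A). The log2 fold changes had medians of 0.38, 0.12, 0.60 and 0.12 in CT2A, GL261, Mut3 and 005. Ube2s, its chain-extending enzyme, was at 4.12 ± 1.09 CPM in naïve brain, 8.35 ± 1.68 CPM in CT2A, 5.74 ± 0.488 CPM in GL261, 3.9 ± 0.962 CPM in 005 and 2.4 ± 0.114 CPM in Mut3 (adjusted p among the lines = 0.0122), and the subunit Anapc5 at 45.1 ± 6.74 CPM in naïve brain, 33.5 ± 3.68 CPM in CT2A, 30.6 ± 18.1 CPM in GL261, 51.1 ± 18.1 CPM in 005 and 79.2 ± 15 CPM in Mut3 (adjusted p = 0.0363). Ube2s was lowest in Mut3, where Anapc5 was highest. Of the 14 cohesin and condensin genes, 6 rose in CT2A, 005 and Mut3 and 5 in GL261. The cohesin subunits Smc3, at 124 ± 34.8 CPM in naïve brain, 293 ± 63.9 CPM in CT2A, 103 ± 14.7 CPM in GL261, 132 ± 20.7 CPM in 005 and 174 ± 49.6 CPM in Mut3 (adjusted p = 0.00847), and Stag1, at 29.6 ± 9.1 CPM in naïve brain, 29.9 ± 6.8 CPM in CT2A, 21.1 ± 4.98 CPM in GL261, 23.3 ± 0.671 CPM in 005 and 49.2 ± 2.6 CPM in Mut3 (adjusted p = 0.0167), peaked in CT2A and in Mut3. The cohesin regulator Pds5b was at 79.4 ± 43.6 CPM in naïve brain, 15.5 ± 2.45 CPM in CT2A, 34.4 ± 12.1 CPM in GL261, 76.5 ± 22.6 CPM in 005 and 52.2 ± 14.1 CPM in Mut3 (adjusted p = 0.00573), and fell in CT2A and GL261. Of 13 factors that transcribe these genes, 4, 3, 3 and 4 rose in CT2A, GL261, 005 and Mut3. The chromatin protein Rbbp4 was at 90.3 ± 19.6 CPM in naïve brain, 127 ± 9.25 CPM in CT2A, 110 ± 6.18 CPM in GL261, 96.6 ± 4.71 CPM in 005 and 188 ± 37.6 CPM in Mut3 (adjusted p = 0.0276) and E2f8, a repressor of cell cycle genes, at 0.843 ± 0.677 CPM in naïve brain, 12.1 ± 1.46 CPM in CT2A, 7.02 ± 2.34 CPM in GL261, 36.2 ± 27.1 CPM in 005 and 12.4 ± 4.59 CPM in Mut3 (adjusted p = 0.0462).

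In GENCODE, 26 of the 45 genes overlap another gene model, 19 of them 1 or more on the opposite strand, such as Bub3 with Fgfr2, Ube2c with Tnnc2, Kif20a with Cdc23 and Nusap1 with Oip5. The strand setting of the counting was not given in the sources used here, so the reads of such partners cannot be told apart.

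DNA replication genes, read as another measure of cycling cells, rose as well. Of 24 such genes, 20 rose in CT2A, 18 in GL261, 18 in 005 and 20 in the Mut3 tumors, and the medians of 3.37, 2.62, 2.29 and 3.60 were lower than those of the mitotic list. Over all tested genes, 19.0%, 14.6%, 11.6% and 17.9% were called higher in the same order. The mean log2 CPM of the mitotic genes exceeded that of the replication genes by 0.18 to 0.42 in CT2A, 0.24 to 0.34 in GL261 and up to 0.31 in Mut3. In 005 the difference was 0.74 at most and -0.29 in replicate 3, and in naïve brain it lay between -1.10 and -0.73.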

How the data were processed

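RNA from 3 naïve brains and 12 end-stage tumors was sequenced (50 ng per whole-transcriptome Illumina library). The labels and the authors' methods name STAR v2.4.2a with a GENCODE annotation, Picard and RNA-SeQC, and the submitters' processing notes name Salmon, DESeq2 1.18.1 and mm10, without roles. The deposited tables hold expected counts per gene, not normalized by the authors, and TPM (scaled by the authors for transcript length and depth). Strandedness was not given in the sources used here.

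Expected counts were rounded to whole numbers. Genes were filtered with filterByExpr, leaving 17481, and fitted with edgeR 4.0.16 (R 4.3.3; TMM, quasi-likelihood, all 15 samples, 1 term for group), with Benjamini-Hochberg adjustment over all tested genes. CPM use TMM library sizes, mean log2 CPM a prior count of 2. The second F test set each tumor library's normalization factor so that the members' mean log2(count + 0.5) was equal. The steps were tested on simulated data. Alternatives were DESeq2 1.42.0, library size, other count filters and fold thresholds, only the samples compared, limma 3.58.1 on log2(TPM + 1), a replicate block, and leaving out each sample.

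The members and gene lists were chosen with earlier results of these data known. Values in every sample were given for Mki67, Top2a, Cdk1, Ccnb1, Aurkb, Plk1, Cdc20, Bub1b and Foxm1, for the largest and smallest change over naïve brain in each tumor, and for the 5 genes with the smallest p in the scaled test; for the other mitotic lists, up to 3 genes with the smallest p among the tumors were named. Values of Spc24 were added after its values were seen. The study states 3 mice per group; same-numbered mice did not deviate together (r from -0.33 to 0.26 over 30 pairs, 1 above 0.1), so the numbers do not pair samples. No 2 replicates agreed within sampling noise. Between genes, counts per TPM per kb of the longest coding transcript ranged from 0.191 (Ncapd2) to 2.45 (Anln) times the median member, which limits comparisons of levels between genes. Counting intervals cover counting error only. Part of the genotype of the lines is not reported here.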

Additional observations from a re-analysis of the deposited data

Results flagged for a closer look

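A total of 10 differences between tumor lines passed edgeR's quasi-likelihood test (adjusted p under 0.05 and at least 2-fold), each a difference of log2 levels between lines. Over all tested genes, the share called in a single direction ran from 0.887% (lower in GL261 than in 005) to 14.0% (higher in 005 than in Mut3). Between CT2A and GL261, Ect2 differed by 2.05 (adjusted p = 0.0414), Smc4 by 2.06 (adjusted p = 0.0248) and Pttg1 by -1.37 (adjusted p = 0.0191). Ect2 differed by 1.87 (adjusted p = 0.0423) between CT2A and Mut3. Pttg1 differed by 1.85 (adjusted p = 0.00696) between GL261 and 005, and kept its call without each of the 6 samples in turn. Between GL261 and Mut3, Aurkb differed by -1.85 (adjusted p = 0.0334) and Mki67 by -2.43 (adjusted p = 0.0161). Between 005 and Mut3, Spc24 differed by -1.90 (adjusted p = 0.0311), Mki67 by -2.04 (adjusted p = 0.0279) and Anln by 1.32 (adjusted p = 0.0320). For Anln, the CPM of 005 and Mut3 overlapped. When the 6 samples compared were left out in turn, the calls of Ect2 and Aurkb were lost each time. Smc4 kept its call in 1 of 6 such fits, and the remaining calls, apart from Pttg1 between GL261 and 005, in 2 or 3 of 6. The part of neuron and macrophage marker sums in these differences was not tested.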

How the results depend on the processing

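No called difference changed sign, and no member was called lower than naïve brain under these alternatives except 1 in 005 with limma on log2(TPM + 1). Requiring at least 10 counts in every sample left 18 members, of which 17, 16, 15 and 17 were called higher than naïve brain in CT2A, GL261, 005 and Mut3, with medians of 4.09, 2.68, 3.05 and 3.51; between lines it called 1 higher in CT2A than in 005, and 0 lower in GL261 or 005 than in Mut3, and 2 among the lines, and 0 of the 43 members left on the scale of the list. The scale log2(TPM + 1) understates changes of low genes and carries the shift of TPM given above. With limma on it, the medians over naïve brain were 1.68, 1.27, 1.37 and 1.84. That of CT2A over GL261 was 0.30. In GL261, limma called 25 higher than naïve brain (5.82% of all genes). Between lines it called 2 higher in CT2A than in 005 (1.32%) and 2 lower in CT2A than in Mut3 (3.46%). It called 0 higher in 005 than in Mut3 (3.71%). With only the samples compared, 10 were called in 005 over naïve brain (1.46% of all genes); CT2A against GL261 gave 14 higher and 3 lower (8.27% and 7.5% of all genes), CT2A against Mut3 5 and 4 (10.2% and 9.93%), GL261 against Mut3 1 and 13 (15.2% and 9.52%), and GL261 against 005 0 higher, and 005 against Mut3 0 in both directions. DESeq2 called 5 higher in CT2A than in GL261, 2 than in 005 and 3 than in Mut3 (6.68%, 4.81% and 9.98% of all genes). It called 2 lower in CT2A and 5 lower in GL261 than in Mut3 (8.35% and 8.71%), and 13 among the lines. Without a low-count filter the counts in the same order were 4, 2, 2, 2, 4 and 11. The shares of all genes for the pairs were 2.39%, 1.29%, 4.11%, 3.32% and 3.46%. This fit called 4 lower in 005 than in Mut3 (3.09%) and 0 among the lines on the scale of the list. That scale with all 15 samples called 3. By library size, CT2A against Mut3 gave 0 higher and 1 lower (5.30% and 6.86% of all genes) and 005 against Mut3 0 higher (12.3%). This scaling shifted the median of all genes by -0.20 for CT2A over naïve brain. A log2 threshold of 2 left 0 lower in CT2A than in GL261 (2.55% of all genes). It left 0 higher in CT2A than in Mut3 (4.55%), in GL261 than in 005 (1.42%) and in 005 than in Mut3 (10.9%). It left 1 lower in GL261 and in 005 than in Mut3 (3.02% and 2.76%). With no fold threshold 1 was higher in GL261 than in Mut3 (11.4%). The replicate block, where numbers are shared without pairing mice, gave 1 higher in CT2A than in GL261 (3.23% of all genes). It gave 0 higher in CT2A than in Mut3 (5.61%) and 0 in 005 than in Mut3 (10.1%). It gave 1 lower in GL261 and 0 lower in 005 than in Mut3 (4.97% and 4.49%), 3 among the lines and 0 on the scale of the list. The cause of these shifts was not tested.

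Leaving out 1 sample at a time left 42 to 44 called over naïve brain in CT2A, 37 to 39 in GL261, 34 to 44 in 005 and 42 to 44 in Mut3. It gave 0 to 1 higher and 0 to 1 lower in CT2A against GL261, 0 to 1 higher in CT2A against 005, 0 in CT2A against Mut3, 1 higher and 0 to 2 lower in GL261 against 005, 0 to 1 lower in GL261 against Mut3, 0 to 1 higher and 0 to 7 lower in 005 against Mut3, 2 to 20 among the lines and 0 to 13 on the scale of the list. The shares of all genes called moved between these fits as well, and those for the tests among the lines are given above. With the naïve brains left out in turn, 14.9% to 17.9% of all genes were called higher in CT2A and 9.24% to 11.7% in GL261. The ranges were 5.96% to 9.25% in 005 and 13.9% to 17.4% in Mut3. Ect2 lost its calls without any 1 sample compared (adjusted p 0.0673 to 0.139 against GL261, 0.0551 to 0.144 against Mut3), as did Aurkb (0.0515 to 0.125). Smc4 kept its call without CT2A replicate 1 alone (adjusted p = 0.0296). Pttg1 between CT2A and GL261 kept it without replicate 3 of either line (adjusted p 0.0362 to 0.0743). Mki67 against Mut3 kept it without Mut3 replicate 2, and without GL261 replicate 3 or 005 replicate 2 or 3 (adjusted p 0.0201 to 0.0676 for GL261, 0.0117 to 0.101 for 005). Spc24 was lost without 005 replicate 3 or Mut3 replicate 1 or 3 (adjusted p 0.0254 to 0.121), and Anln was kept without 005 replicate 3 or Mut3 replicate 3 (adjusted p 0.00444 to 0.148). The median differences ranged from -0.66 to 0.24 for GL261 over 005, -0.24 to 0.24 for CT2A over Mut3, 0.23 to 1.02 for CT2A over 005, 0.48 to 0.87 for CT2A over GL261, -0.92 to -0.41 for GL261 over Mut3 and -1.08 to -0.27 for 005 over Mut3. Over naïve brain they ranged from 4.39 to 4.93 in CT2A, 3.72 to 4.06 in GL261, 3.46 to 4.36 in 005 and 4.24 to 4.81 in Mut3. Over naïve brain, calls of Espl1, Ttk, Spc24, Spc25, Kif2c, Kif4, Kif20a, Ncapd2, Anln or Bub3 were lost in some of these fits. Only 18 of the 45 members had at least 10 counts in every sample. The others were under 10 in 1 or more naïve brains, among them Knl1 (1 to 6 counts) and Nusap1 (3 to 13). This limits the precision of their fold changes.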
